A study of Mus musculus with 12 samples.

Results

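The Notch pathway was followed through 9 genes of the LPS-stimulated dendritic cell (DC) line Sp37A3, out of 55401 genes in the deposited table. They are the ligands Dll4, Dll1, Jag1 and Jag2, the receptors Notch1 and Notch2, the DNA-binding partner Rbpj, and the target genes Hes1 and Nrarp. The list was selected on earlier values of these data, since it was built around Dll4, which stood far higher in one line than in the other, so for the 9 genes the difference between the lines is given below as a description and without a test. Of the 9 genes, 6 passed the expression filter, a log2 CPM above 0 in at least 2 of the 12 libraries, where CPM is a gene's count scaled to the normalized library total, and belonged to the 14079 genes that were tested. Dll1, Hes1 and Nrarp did not pass. Dll4 and Jag1 passed only through libraries of the line in which they were high.

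Sp37A3 is an immature DC line from mouse spleen, grown with GM-CSF and M-CSF. The CtrV line was transduced with an empty vector, and the line labelled EKO is a pool of clones chosen after CRISPR-Cas9 editing of Siglece, the gene of the inhibitory sialic acid receptor Siglec-E. RNA was sequenced from 4 groups of 3 libraries: CtrV and EKO cells that were unpulsed, and CtrV and EKO cells that had been pulsed with ovalbumin (OVA). All 12 libraries came from cells stimulated with LPS for 24 h, so cells without LPS were not part of the comparison. The labels give replicate numbers 1 to 3 but do not say that the cultures were grown separately, and p-values then measure only the spread between these samples.

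In Notch signalling, a ligand of the Delta or Jagged family on one cell binds a Notch receptor on a neighbour. The receptor is cut by an ADAM protease and then by the gamma-secretase complex, and the freed intracellular part enters the nucleus, where it joins the protein encoded by Rbpj and a Mastermind coactivator and switches on genes of the Hes and Hey families and feedback inhibitors such as Nrarp. DCs take part on both sides: their ligands act on T cells, and Notch2 is required for subsets of splenic DCs. Dll4 on activated DCs is known for its effect on the differentiation of helper T cells.

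The library totals lay between 27116201 and 39698572 counts, and 3 counts, taken as the lowest level that could be seen, corresponded to 0.0774 to 0.108 CPM, a limit that covers counting error only. All 9 DC markers examined were above 1 CPM, with summed levels between 20862 and 23883 CPM in every library. The T cell list had 1 of 6 genes above 1 CPM in any library, the B cell list 0 of 4 and the fibroblast list 0 of 4. The summed T cell list reached at most 0.272 CPM in any CtrV library and 1.55 CPM in any EKO-labelled one. Siglece mRNA was not lower in the edited line. It lay between 149.8 and 163 CPM in the 6 CtrV libraries and between 164 and 237 CPM in the 6 libraries labelled EKO, with a log2 fold change of 0.31 in OVA-pulsed cells (standard error (SE) 0.08, adjusted p = 0.011 by edgeR's quasi-likelihood test) and 0.41 in unpulsed cells (SE 0.08, adjusted p = 0.0026). In OVA-pulsed cells this call was lost without CtrV replicate 2 (adjusted p = 0.073) or without EKO replicate 2 (adjusted p = 0.062). The study pooled clones with minimal or no Siglec-E expression, and the mRNA level does not show how much protein the cells made. The 6 libraries of this line are called EKO-labelled.

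The genes lie on several chromosomes of GRCm38. Dll4 occupies chr2:119325784-119335962 (plus strand), Jag1 chr2:137081456-137116644 (minus strand) and Jag2 chr12:112907819-112929776 (minus strand). Notch1 spans chr2:26457903-26516663 (minus strand), Notch2 chr3:98013527-98150361 (plus strand) and Rbpj chr5:53466152-53657362 (plus strand). Whether strand was used in counting is not stated. Exons of other genes cover 5.56% of the Dll4 exons on the opposite strand, 9.76% of those of Notch1, 20.5% of those of Dll1 and 79.4% of those of Nrarp, so the values of Dll1 and Nrarp are uncertain. A gene on the same strand covers 5.02% of the Notch2 exons.

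The 250 bases before the RefSeq start (GRCm38.p6) are shown for the ligands whose levels differed between the lines, Dll4, Jag1 and Jag2, and for Notch2 and Rbpj, which held a searched motif. They are written 5′ to 3′ on the strand of the gene, with motif matches in capitals. The RefSeq starts differ from the gene bounds given above. The windows of Rbpj and Jag2 lie inside the bounds of their gene, and those of Jag1 and Notch2 overlap them in part. Only the Dll4 window shown lies wholly before the gene.
Dll4, chr2:119325534-119325783, plus strand: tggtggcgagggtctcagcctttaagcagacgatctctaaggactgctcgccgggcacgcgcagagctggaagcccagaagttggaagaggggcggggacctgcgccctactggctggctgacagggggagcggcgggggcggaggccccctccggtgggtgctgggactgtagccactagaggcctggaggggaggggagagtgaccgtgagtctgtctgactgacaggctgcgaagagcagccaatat
Jag1, chr2:137116521-137116770, minus strand: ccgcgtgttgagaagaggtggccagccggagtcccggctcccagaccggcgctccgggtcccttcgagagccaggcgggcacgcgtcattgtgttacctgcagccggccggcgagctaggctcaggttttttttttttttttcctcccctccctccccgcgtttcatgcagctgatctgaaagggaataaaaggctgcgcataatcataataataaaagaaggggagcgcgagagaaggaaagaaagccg
Jag2, chr12:112929496-112929745, minus strand: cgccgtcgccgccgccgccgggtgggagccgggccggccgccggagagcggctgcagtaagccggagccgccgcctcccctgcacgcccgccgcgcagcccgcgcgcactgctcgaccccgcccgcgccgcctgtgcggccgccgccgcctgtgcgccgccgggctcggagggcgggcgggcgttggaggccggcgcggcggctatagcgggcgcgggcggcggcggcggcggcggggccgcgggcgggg
Notch2, chr3:98013288-98013537, plus strand: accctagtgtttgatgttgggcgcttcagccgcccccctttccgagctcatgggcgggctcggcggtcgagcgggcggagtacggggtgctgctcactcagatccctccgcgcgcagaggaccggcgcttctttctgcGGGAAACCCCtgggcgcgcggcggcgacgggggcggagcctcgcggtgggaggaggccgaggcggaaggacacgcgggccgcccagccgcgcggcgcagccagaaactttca
Rbpj, chr5:53590096-53590345, plus strand: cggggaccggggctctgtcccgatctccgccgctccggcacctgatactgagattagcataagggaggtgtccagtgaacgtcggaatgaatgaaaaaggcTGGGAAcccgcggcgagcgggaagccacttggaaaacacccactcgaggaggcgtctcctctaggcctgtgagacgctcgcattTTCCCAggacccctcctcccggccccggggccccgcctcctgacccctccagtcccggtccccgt

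The capitals mark the core of the RBPJ site, TGGGAA, in the Rbpj window and the NF-kB consensus in the Notch2 window, both searched on both strands. Of 32851 mouse promoters of this length, 21.6% held the RBPJ core and 3.90% the NF-kB consensus. Among the 10 windows of the 8 genes with an entry, the RBPJ core was found in both windows of Rbpj, which overlap, and in none of the windows of Dll4, Dll1, Jag1, Jag2, Notch1, Notch2 and Nrarp. In the Rbpj window shown, the first match begins 149 bases before the RefSeq start, which lies inside the gene. The window of Notch1 and a window of Dll1 also lie inside their gene. The NF-kB consensus was found in Notch2, 112 bases before the start, and in Nrarp, and no window held both motifs. The Jag2 window was 87.2% G and C, against a median of 52.4% over all promoters, and those of Dll4 and Jag1 were 65.6% and 57.2%.

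Dll4, the Delta-like ligand, was sparse in CtrV cells, with 2 to 31 counts a library, and had 130 to 668 counts in each EKO-labelled library. Without OVA, replicates 1, 2 and 3 of CtrV cells had 0.0705, 0.536 and 0.480 CPM (2, 15 and 14 counts), and those of EKO-labelled cells had 12.1, 6.08 and 5.15 CPM (334, 185 and 167 counts). With OVA, CtrV cells had 0.843, 0.214 and 0.397 CPM (31, 7 and 12 counts), and EKO-labelled cells had 17.2, 4.18 and 7.45 CPM (668, 130 and 242 counts). The highest CtrV library thus stayed below the lowest EKO-labelled library, and replicate 1 was the highest of the EKO-labelled libraries in both pulsing states. The log2 fold change of EKO-labelled against CtrV cells was 4.27 (SE 0.42) with OVA, a 19.2-fold higher level, and 4.39 (SE 0.47) without OVA, a 20.9-fold higher level. Among the 14079 tested genes, these differences ranked 14th and 10th from the highest. In bulk RNA, a larger share of cells with the transcript and more transcript per cell cannot be told apart.

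The size of the Dll4 difference in unpulsed cells depended on the CtrV libraries with few counts. Without CtrV replicate 1, which had 2 counts, the log2 fold change was 3.36, and without CtrV replicate 2 it was 5.05. With both EKO-labelled replicate 1 libraries left out, it was 4.04 in unpulsed and 3.64 in OVA-pulsed cells. Dll4 is also a gene of endothelial cells, and 2 of 4 endothelial markers were above 1 CPM. Their summed level was 169 to 205 CPM in CtrV libraries and 281 to 347 CPM in EKO-labelled libraries, most of it from Pecam1. Cdh5 was also higher in every EKO-labelled library (1.78 to 2.86 CPM) than in any CtrV library (0.925 to 1.59 CPM). Kdr was at 0 in all CtrV libraries and reached 0.230 CPM in EKO-labelled ones, and Tek was at 0 in every library. The part of these markers in the Dll4 difference was not tested.

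**Figure D1:**
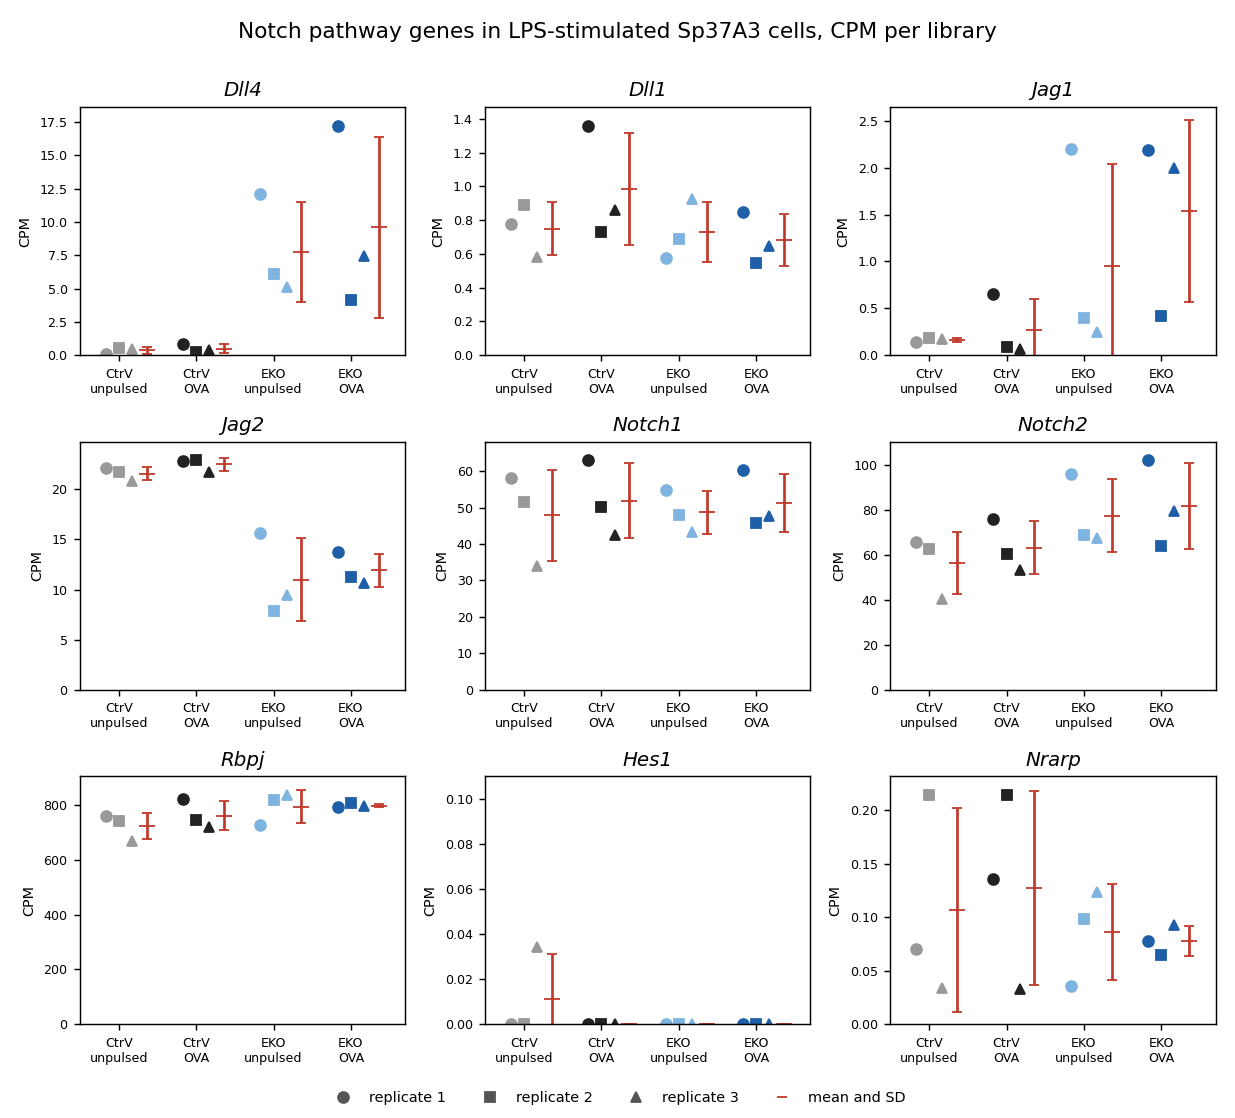
Level in CPM (vertical axis, from 0) of each of the 9 genes in the 12 libraries, in 4 groups along the horizontal axis, with symbols for replicates 1 to 3 and red bars for the mean and SD of 3 libraries, drawn from 0 upwards. Dll4 lies between 4.18 and 17.2 CPM in the EKO-labelled libraries and at or below 0.843 CPM in the CtrV libraries, whereas Jag2 lies between 20.9 and 22.9 CPM in CtrV and between 7.85 and 15.7 CPM in EKO-labelled libraries.

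Jag1, a Jagged ligand, was higher in EKO-labelled than in CtrV cells, but at a low level that was uneven among replicates. Unpulsed CtrV cells had 0.141, 0.179 and 0.171 CPM in replicates 1, 2 and 3, and unpulsed EKO-labelled cells had 2.20, 0.394 and 0.246 CPM. OVA-pulsed CtrV cells had 0.653, 0.0916 and 0.0661 CPM, and OVA-pulsed EKO-labelled cells had 2.19, 0.418 and 2.00 CPM. The groups did not overlap without OVA, but with OVA the lowest EKO-labelled library was below CtrV replicate 1. The log2 fold change was 2.53 (SE 0.60) with OVA and 2.40 (SE 0.78) without, each based on few counts, 29 against 163 and 14 against 81 in the summed libraries.

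Single libraries decided the size of the Jag1 difference. In OVA-pulsed cells it was 3.55 without CtrV replicate 1, 3.32 without EKO replicate 1 and 1.88 without EKO replicate 3. In unpulsed cells it was 1.51 without CtrV replicate 1, 1.42 without EKO replicate 1 and 3.00 without EKO replicate 3. Jag1 and Dll4 varied together within groups, with a correlation of 0.70 between their deviations from the group means over 12 libraries. Differences in depth and handling between libraries were not separated from this correlation, and no test was made of it.

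Jag2, the other Jagged ligand, moved the opposite way and was the most abundant ligand of CtrV cells. Replicates 1, 2 and 3 had 22.1, 21.8 and 20.9 CPM in unpulsed and 22.9, 22.9 and 21.7 CPM in OVA-pulsed CtrV cells. EKO-labelled cells reached 15.7, 7.85 and 9.46 CPM when unpulsed and 13.8, 11.3 and 10.7 CPM when pulsed. Every EKO-labelled library lay below every CtrV library. The CtrV libraries were close to each other, and EKO-labelled replicate 1 was again the highest of its group. The level was 1.88-fold lower with OVA (log2 fold change -0.91, SE 0.15) and 2.00-fold lower without OVA (a log2 difference that fell by 1.00, SE 0.16). Of 4 epithelial markers, Cdh1 was lower as well, with 549 to 634 CPM in CtrV libraries and 152 to 184 CPM in EKO-labelled ones. Epcam was not lower, with 20.8 to 27.1 CPM in CtrV libraries and 25.4 to 32.5 CPM in EKO-labelled ones, while Krt18 was at 0 and Krt8 reached at most 0.0331 CPM. The summed list, 576 to 657 CPM in CtrV libraries and 179 to 209 CPM in EKO-labelled ones, thus followed Cdh1, and its part in the Jag2 difference was not tested.

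Dll1, the remaining ligand, was near 1 CPM or below in all groups. Unpulsed CtrV cells had 0.776, 0.893 and 0.582 CPM and unpulsed EKO-labelled cells 0.578, 0.690 and 0.924 CPM. OVA-pulsed CtrV cells had 1.36, 0.732 and 0.860 CPM and OVA-pulsed EKO-labelled cells 0.852, 0.546 and 0.646 CPM. The lines overlapped in both pulsing states, and without the expression filter the log2 fold change was -0.53 (SE 0.26) with OVA and -0.01 (SE 0.28) without. The ligands Dll3, Dlk1, Dlk2 and Dner did not pass the filter, with at most 21 counts each over all libraries.

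The receptors differed less between the lines than these 3 ligands. Notch1 had 58.2, 51.5 and 34.0 CPM in unpulsed and 63.0, 50.1 and 42.6 CPM in OVA-pulsed CtrV cells. Its values in EKO-labelled cells were 54.9, 48.1 and 43.3 CPM when unpulsed and 60.3, 45.8 and 47.6 CPM when pulsed. The lines overlapped, and the log2 fold change was 0.0053 (SE 0.10) with OVA and 0.05 (SE 0.10) without. Notch2, the receptor that subsets of splenic DCs depend on, had 65.5, 62.6 and 40.3 CPM in unpulsed and 75.9, 60.5 and 53.1 CPM in OVA-pulsed CtrV cells. EKO-labelled cells had 95.9, 68.8 and 67.2 CPM when unpulsed and 102, 64.0 and 79.4 CPM when pulsed. The EKO-labelled library was above the CtrV library of the same number in 3 of 3 pairs in both states, but the groups overlapped with OVA. The log2 fold change was 0.39 (SE 0.13) with OVA and 0.46 (SE 0.13) without, about 1.31-fold and 1.38-fold. Leaving out 1 library at a time, it lay between 0.26 (without EKO replicate 3) and 0.53 (without EKO replicate 2) with OVA and between 0.32 (without CtrV replicate 3) and 0.65 (without CtrV replicate 2) without OVA.

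Both receptors shared their deviations between replicates, with a correlation of 0.94 over the 12 libraries. Replicate 3 of unpulsed CtrV cells was the lowest library for both. In this library, the 1948 tested genes with at least 8000 bases of exon, which include Notch1 and Notch2, deviated by a median of -0.14 (log2) from their group means, against 0.04 for 12108 shorter genes, and the part of this in the receptor values was not tested. Notch3 and Notch4 had at most 0.109 and 0.274 CPM and were not tested.

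Rbpj, which carries the signal to DNA, was the most abundant of the 9 genes and nearly even across groups. It had 759, 740.4 and 668 CPM in unpulsed and 821, 745 and 718 CPM in OVA-pulsed CtrV cells. EKO-labelled cells had 726, 817 and 837 CPM when unpulsed and 794, 806 and 794 CPM when pulsed. The lines overlapped in both states, with log2 fold changes of 0.08 (SE 0.07) with OVA and 0.14 (SE 0.07) without. In unpulsed cells it was 0.22 without EKO replicate 1.

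The classical targets gave almost no reads in any group. Hes1, a transcriptional repressor, had 1 count in all 12 libraries together, out of 378728215 counts, and 11 libraries had none, which allows at most 0.0774 to 0.108 CPM per library. Nrarp, which promotes the loss of the Notch intracellular part, had 38 counts in all and never more than 7 in a library, with 4 libraries above 3 counts. Hes5, Hey1, Hey2, Heyl and Ptcra were equally sparse, with at most 16 counts each over all libraries. Dtx1, a ubiquitin ligase gene induced by Notch, had 98 counts and did not pass the filter. The summed libraries of CtrV cells held 8 without OVA and 11 with OVA, and those of EKO-labelled cells 30 and 49. EKO-labelled replicate 1 held 22 without OVA and 30 with OVA, and replicate 3 held 15 with OVA. At these depths, a difference between the lines was not detectable for Hes1 or Nrarp.

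The groups did not overlap between the lines for 2 of the 6 tested genes with OVA, Dll4 and Jag2, and for 4 without OVA, which also included Jag1 and Notch2. Over all tested genes the share was 52.9% and 47.1%. Since the list was built on this contrast, nothing is read from these counts.

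Levels per kilobase of exon allow genes to be compared. The order of the means was the same for the top 3 genes in each group: Rbpj, Notch2 and Notch1. The libraries of Notch2 and Notch1 overlapped in unpulsed CtrV cells, and those of Notch1 and Jag2 overlapped in both CtrV groups. In OVA-pulsed EKO-labelled cells the means were 62.6 ± 0.522 (SD, n = 3) CPM per kilobase for Rbpj, 7.59 ± 1.77 for Notch2, 3.60 ± 0.557 for Notch1, 2.50 ± 1.76 for Dll4 and 1.71 ± 0.236 for Jag2. Jag1 followed with 0.264 ± 0.167, Dll1 with 0.162 ± 0.0369 and Nrarp with 0.0302 ± 0.00545. Neighbouring values overlapped between Notch1 and Dll4, between Dll4 and Jag2, and between Jag1 and Dll1. In OVA-pulsed CtrV cells, Jag2 at 3.23 ± 0.0968 CPM per kilobase stood beside Notch1 at 3.65 ± 0.726, and Dll1 at 0.233 ± 0.0787 and Dll4 at 0.126 ± 0.0841 came far behind.

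The ratio of Dll4 to Jag2 per kilobase was between 0.00576 and 0.0667 in the 6 CtrV libraries. It was 1.39, 1.40 and 0.984 in replicates 1, 2 and 3 of unpulsed EKO-labelled cells and 2.26, 0.670 and 1.26 in OVA-pulsed ones. Dll4 was thus about as abundant as Jag2 in EKO-labelled cells, above it in 4 of 6 libraries. With the longest transcript as the length, the ratios were 1.05, 1.05, 0.741, 1.70, 0.505 and 0.950 in the same order, above 1 in 3 of 6.

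**Figure D2:**
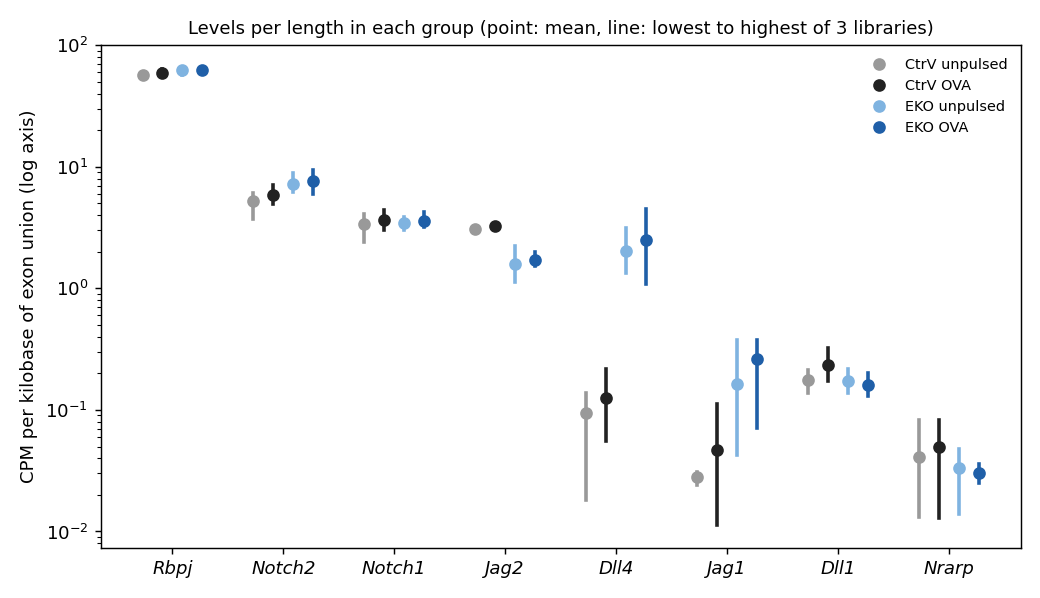
Mean level (points) and range of 3 libraries (lines) in CPM per kilobase of exon union, on a log axis, for 8 of the 9 genes in the 4 groups, with Hes1 left out because it was at 0 in 11 libraries. Rbpj stands highest and Notch2 and Notch1 follow in every group, Jag2 comes next in CtrV cells and Dll4 and Jag2, with overlapping ranges, in EKO-labelled cells. Dll4 is the gene that moves most between CtrV (grey and black) and EKO-labelled cells (blue), from 0.126 to 2.50 with OVA.

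OVA pulsing was not used in choosing the genes, and no change with it was detected for any of them. In CtrV cells the log2 fold change of OVA-pulsed against unpulsed cells was 0.35 for Dll4 (95% confidence interval -1.31 to 2.02), 0.69 for Jag1 (-1.45 to 2.82) and 0.05 for Jag2 (-0.28 to 0.38). For Notch1 it was 0.12 (-0.10 to 0.33), for Notch2 0.16 (-0.12 to 0.45) and for Rbpj 0.07 (-0.09 to 0.22). The intervals of Dll4 and Jag1 in CtrV cells are wide, and their summed counts there were 31 and 14 without OVA and 50 and 29 with OVA.

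In EKO-labelled cells, Dll4 changed by 0.23 (-0.39 to 0.86), Jag1 by 0.82 (-0.27 to 1.91) and Jag2 by 0.14 (-0.22 to 0.50) on the log2 scale. Dll4 and Jag1 had more counts there than in CtrV cells and narrower intervals, whereas Jag2 had fewer counts. Notch1 changed by 0.07 (-0.14 to 0.28), Notch2 by 0.09 (-0.20 to 0.37) and Rbpj by 0.01 (-0.15 to 0.16). The dependence of the line difference on pulsing lay between -0.12 for Dll4 and 0.13 for Jag1, with intervals from -1.86 to 1.62 and from -2.57 to 2.84. All adjusted p were 1 in these 3 comparisons (edgeR's quasi-likelihood test). They called 0.00% of all tested genes, with 231, 394 and 269 genes at an unadjusted p under 0.05 in CtrV cells, in EKO-labelled cells and for the dependence. DESeq2 called 0 genes as well, with 44, 156 and 103 at an unadjusted p under 0.05.

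**Figure D3:**
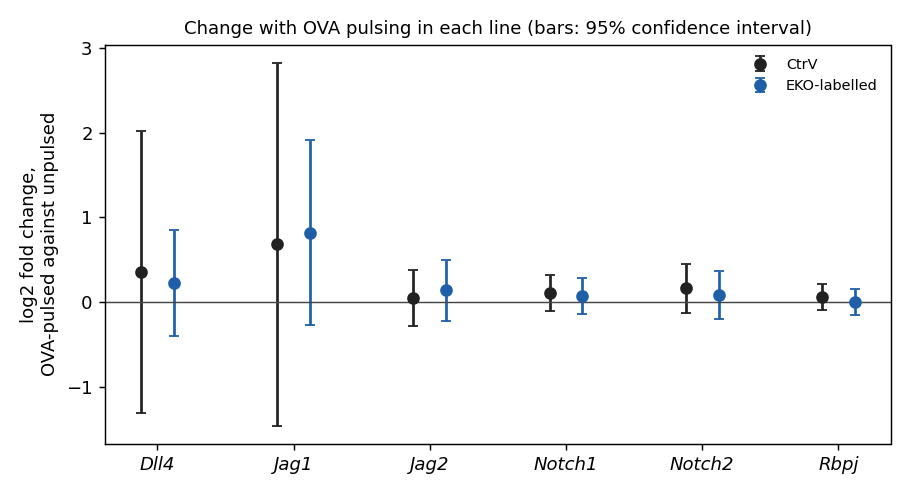
Log2 fold change of OVA-pulsed against unpulsed cells (vertical axis) for the 6 tested genes in CtrV (black) and EKO-labelled cells (blue), with 95% confidence intervals from the edgeR fit. Every interval spans 0, from the narrow one of Rbpj (-0.09 to 0.22 in CtrV cells) to the wide one of Jag1 (-1.45 to 2.82).

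The remaining machinery of the pathway was read from a list of 65 other genes, of which 49 were tested. In OVA-pulsed cells 16 were called higher and 17 lower in the EKO-labelled line (adjusted p under 0.05), or 33 of 49, where 25.1% of all tested genes were called higher and 21.9% lower. In unpulsed cells 16 were higher and 15 lower, against 24.5% and 21.9% of all tested genes. The list was chosen with earlier results of these data known, so nothing is read from these counts. Without the replicate number in the model, 25 of the 49 were called with OVA, beside 5413 of all 14079 tested genes. Without OVA 26 were called, beside 5337. The median log2 fold change of the list was 0.03 with OVA and 0.07 without, and the median over all tested genes was 0.00064 and 0.00013. With OVA 30 of the 49 did not overlap between the lines, against 52.9% of all tested genes, and without OVA 25, against 47.1%. Single libraries moved the calls with OVA: without CtrV replicate 2, 9 genes were called higher and 16 lower, without CtrV replicate 3, 10 higher and 15 lower, and without EKO replicate 3, 10 higher and 14 lower. None of the 49 was called with pulsing in either line or for its dependence, and 0, 2 and 1 of them had an unadjusted p under 0.05. The counts by role below are small, stand beside the same shares of all tested genes, and are not read as results about a role. All adjusted p below are from edgeR's quasi-likelihood test.

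The Fringe enzymes, which add sugars to Notch and so tune which ligand it answers to, were lower in the EKO-labelled line. With OVA, 3 of 5 glycosylation genes were lower and 1 was higher. Mfng fell from 29.6 ± 2.33 CPM (SD, n = 3) in CtrV to 15.6 ± 0.628 CPM in EKO-labelled cells (log2 fold change -0.91, SE 0.06, adjusted p = 8.2e-07) and Lfng from 81.7 ± 3.20 to 42.0 ± 8.94 CPM (-0.97, SE 0.14, adjusted p = 0.00024). Poglut1, which adds glucose to Notch, rose from 33.7 ± 2.27 to 62.3 ± 16.3 CPM (0.87, SE 0.16, adjusted p = 0.00096). Unpulsed cells gave the same counts and directions, with log2 fold changes of -0.86 for Mfng, -1.10 for Lfng and 0.68 for Poglut1.

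Genes of ligand endocytosis, the step by which the sending cell pulls on the receptor, were divided, with 2 of 5 higher and 2 lower in both states. Neurl1b, a ubiquitin ligase for Notch ligands, fell from 15.1 ± 1.76 to 4.71 ± 0.870 CPM with OVA (log2 fold change -1.67, SE 0.17, adjusted p = 1.9e-05) and by 1.31 on the log2 scale without OVA. Epn1, an endocytic adaptor, was lower by a smaller amount (-0.35, SE 0.05, adjusted p = 0.00024), and Mib2 was higher (0.30, SE 0.09, adjusted p = 0.020). Neurl1a was the other gene called higher (1.45, SE 0.46, adjusted p = 0.024, and 1.39 without OVA). Its level was low and the groups overlapped in both states, with EKO replicate 1 the highest library in each. The call of Mib2 with OVA was lost without CtrV replicate 2 or 3 (adjusted p = 0.11 for both), EKO replicate 2 (0.095) or EKO replicate 3 (0.086).

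Of 10 genes that cut the receptor, 3 were higher and 3 lower with OVA, and 3 were higher and 2 lower without. Furin, the protease that processes Notch on its way to the surface and that has many other substrates, rose from 157 ± 15.1 to 532 ± 29.7 CPM with OVA (log2 fold change 1.77, SE 0.07, adjusted p = 3.1e-08) and by 1.66 without OVA. Aph1c, a gamma-secretase subunit, was lower (-0.86, SE 0.07, adjusted p = 2.3e-06), and Adam10, the protease of the first activating cut, was slightly lower with OVA (-0.26, SE 0.06, adjusted p = 0.0058) but missed the threshold without OVA (-0.16, adjusted p = 0.058), where it passed without CtrV replicate 3 (0.015) or EKO replicate 3 (0.042).

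Among the partners of Rbpj in the nucleus, 4 of 7 were higher and 1 lower in both states. The Mastermind coactivators went different ways: Maml2 rose from 4.61 ± 1.99 to 11.2 ± 1.97 CPM with OVA (log2 fold change 1.31, SE 0.18, adjusted p = 2e-04), Maml1 rose less (0.33, SE 0.06, adjusted p = 0.0017), and Maml3 fell (-0.69, SE 0.15, adjusted p = 0.004). Of 7 corepressor genes, 2 were higher and 1 lower in both states, namely the histone deacetylase gene Hdac1 (0.32, SE 0.04, adjusted p = 0.00015), the demethylase gene Kdm5a (0.20, SE 0.07, adjusted p = 0.029) and L3mbtl3, whose product binds RBPJ (-0.73, SE 0.11, adjusted p = 0.00038). The call of Kdm5a with OVA was lost without any single library but EKO replicate 2, with an adjusted p between 0.056 (without CtrV replicate 1) and 0.16 (without EKO replicate 3), and it was lost without the replicate number in the model (0.24).

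Turnover genes and inhibitors were called lower in 5 and higher in 2 of 11 cases with OVA, and lower in 4 and higher in 2 without. Dtx4, a Deltex ubiquitin ligase gene, fell from 45.6 ± 3.87 to 23.7 ± 0.406 CPM (log2 fold change -0.93, SE 0.05, adjusted p = 2.8e-07). Itch, a ligase that acts on Notch and on several other proteins, was lower (-0.41, SE 0.05, adjusted p = 8.9e-05). Dtx3l, a relative of Deltex that is also an interferon-stimulated gene, rose from 146 ± 36.2 to 300 ± 18.7 CPM (1.07, SE 0.14, adjusted p = 1e-04).

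The 3 tested genes among 9 further targets, all of them also controlled by other pathways, did not move one way. Gata3, a transcription factor that Notch induces in T cells, fell from 34.4 ± 1.92 to 15.7 ± 2.24 CPM with OVA (log2 fold change -1.12, SE 0.06, adjusted p = 2.1e-07) and by 1.18 on the log2 scale without. Il2ra, the IL-2 receptor alpha chain, rose from 488 ± 64.9 to 702 ± 86.8 CPM (0.54, SE 0.07, adjusted p = 0.00013). Myc was slightly lower (-0.27, SE 0.08, adjusted p = 0.014), a call that was lost without CtrV replicate 1 (adjusted p = 0.070), EKO replicate 1 (0.072) or EKO replicate 3 (0.061), or without the replicate number in the model (0.089). Of 3 genes of Notch2-dependent DCs, Clec4a4 was tested and rose from 21.0 ± 1.24 to 40.1 ± 1.21 CPM (0.95, SE 0.07, adjusted p = 1.7e-06), while Esam and Cd4 reached at most 0.0723 and 0.554 CPM.

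**Figure D4:**
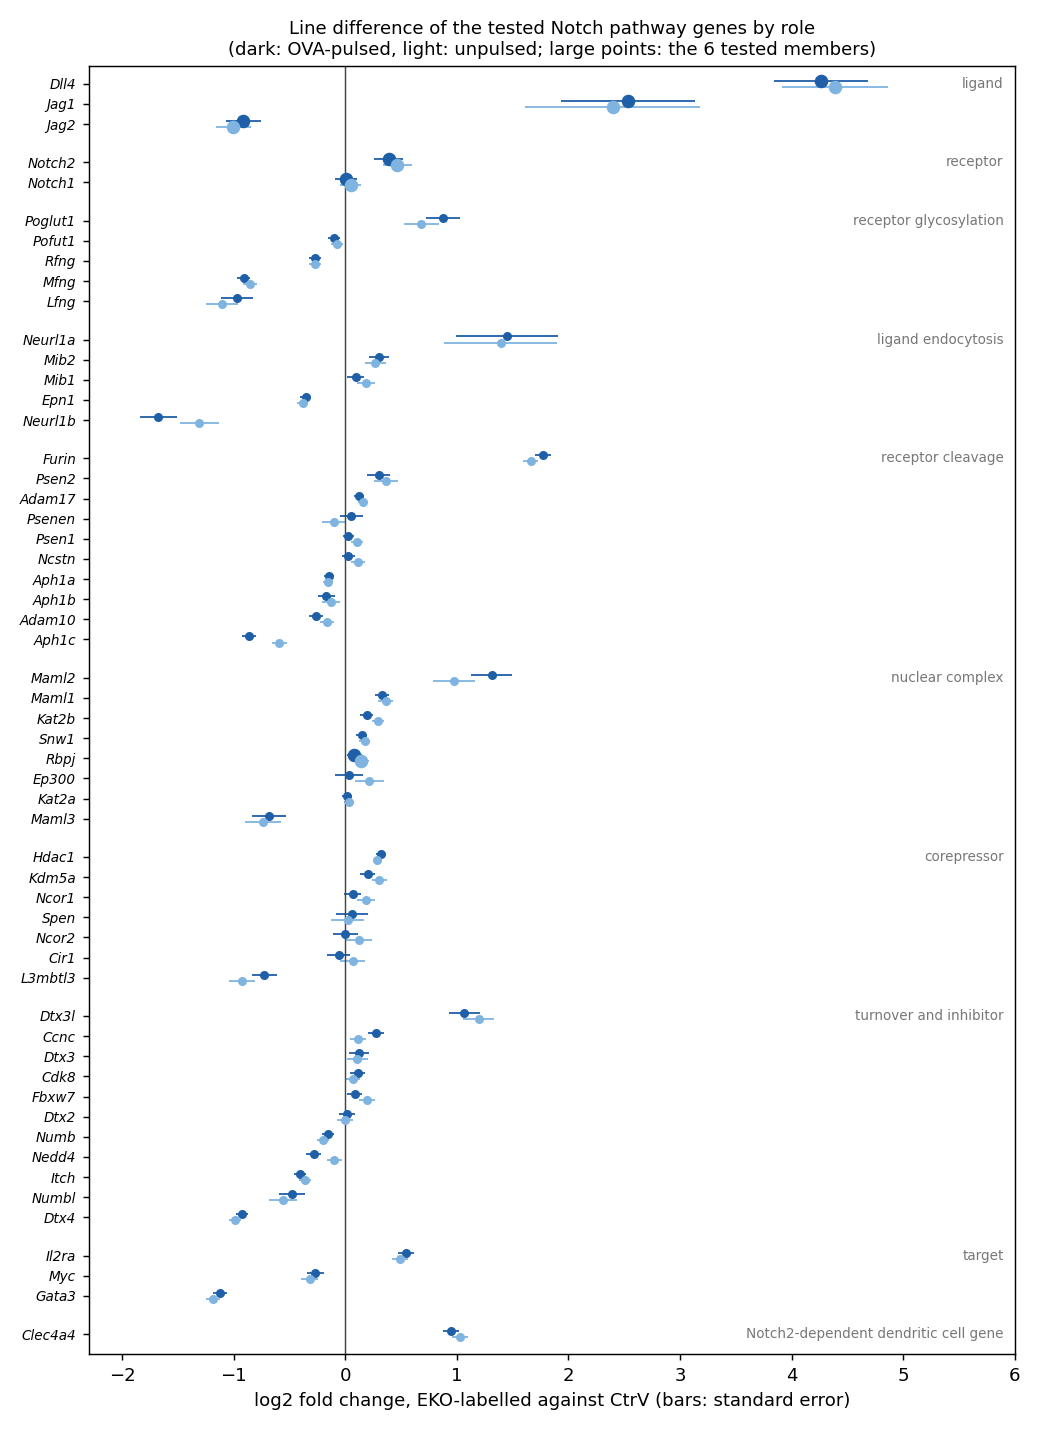
Log2 fold change of EKO-labelled against CtrV cells (horizontal axis, bars are standard errors) for the 6 tested members (large points) and the 49 other tested pathway genes, sorted by role, with OVA (dark) and without OVA (light). Dll4 at 4.27 and 4.39 lies farthest to the right, Neurl1b at -1.67 and -1.31 farthest to the left, and the roles hold genes on both sides of 0.

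The genes whose log2 CPM ran most closely with that of Dll4 over the 12 libraries, among 12393 genes with a mean log2 CPM of at least 1, were Snx10 (Pearson's r = 0.99), Cd83 (0.98), Gm15925 (0.98), Tmem70 (0.98) and Blnk (0.98). Cd83 is a surface marker of mature DCs, and Snx10 encodes a sorting nexin of endosomes. Within groups, on deviations from the group means, the closest were Tyw1 (0.93), Cd83 (0.92), Snx10 (0.91), Sh3bp5 (0.91) and Alkbh6 (0.91). For Notch1 they were Gigyf2 (0.99), Zfp646 (0.98), Prdm2 (0.97), Crebbp (0.97) and Zfp369 (0.97). Over all 12 libraries, the correlations with Dll4 include the difference between the lines by which Dll4 was chosen, so nothing is read from them. Differences in depth and handling between libraries were not separated from any of these correlations. With a prior count of 0.5 in place of 2 in the log2 CPM, 4 of 5 genes were shared for Dll4 and 2 of 5 within groups.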

How the data were processed

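RNA sequencing of 12 libraries of LPS-stimulated Sp37A3 cells was analysed, 3 in each of 4 groups taken from the sample labels. The values the authors deposited are raw counts, one per gene and library. According to the study's methods, reads were aligned to mm10 with STAR, a single location was kept for reads fitting several places equally well, and read 5′ ends were assigned to the merged exons of a gene with featureCounts. Reads shared by near-identical genes therefore depend on the location kept.

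Counts were analysed with edgeR 4.0.16 (R 4.3.3): TMM normalization, a filter that keeps genes whose log2 CPM exceeds 0 in 2 or more libraries, and the quasi-likelihood test with group and replicate number as covariates over all 12 libraries, with Benjamini-Hochberg adjustment over the 14079 tested genes. Calls were made at an adjusted p under 0.05 without a fold limit. Between the lines, the 9 members are given by values and SE, without calls. CPM in the text uses TMM-normalized library sizes. Levels per length divide CPM by the exon union of the GENCODE M21 annotation of GRCm38, an annotation other than the Ensembl model used for counting. The common dispersion was 0.0059. Replicates differed beyond sampling noise in every group (chi-square per degree of freedom 4.29 to 38.3), so no library was counted as a duplicate. No column was left unused.

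The replicate block follows the study's methods. Same-numbered libraries deviated together between the lines with OVA (correlations of 0.45, 0.29 and 0.29 for replicates 1, 2 and 3) and between unpulsed and OVA-pulsed EKO-labelled cells (0.71, 0.35 and 0.41). Libraries with different numbers were not compared in this way, so whether the number pairs the libraries was not tested.

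The genes and the pathway list were chosen with earlier results of these data known. Genes named are the 9 members, Siglece, the 5 genes of most similar pattern, and every tested ligand, receptor and target gene of the list. In each other role, up to 3 genes with the smallest adjusted p in OVA-pulsed cells are named, and Neurl1a in addition. Alternatives were DESeq2 1.42.0, limma 3.58.1 (voom), RLE and upper-quartile normalization, no filter, at least 10 counts in every library, no replicate block, bias-adjusted deviances, an adjusted p under 0.01, an absolute log2 fold change of at least 1, the compared libraries alone, both EKO replicate 1 libraries left out, and each library left out in turn. The fit was tested on simulated counts for OVA-pulsed EKO against CtrV. All genes shared 1 dispersion without a replicate effect, and only genes above 1 CPM in OVA-pulsed CtrV cells were changed. Of 13785 genes tested, 97.0% of 67 genes changed 1.5-fold, 98.5% of 67 changed 2-fold and 100% of 66 changed 4-fold were recovered. There were 6 false calls. The rates do not extend to sparse genes such as Dll4 and Jag1 in CtrV cells, or to the spread between the real replicates.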

Additional observations from a re-analysis of the deposited data

How the results depend on the processing

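The differences of the members between the lines carry no test, so the alternatives that change a threshold give no value for them. Under the other fits that left out no single library, the log2 fold change of Dll4 lay between 3.64 and 4.32 with OVA and between 4.04 and 4.79 without OVA, that of Jag2 between -1.01 and -0.90 and between -1.31 and -0.97, and that of Notch2 between 0.34 and 0.39 and between 0.42 and 0.48. With at least 10 counts in every library, or with both EKO replicate 1 libraries left out, Jag1 did not pass the filter, and the former removed Dll4 too. Jag1 also did not pass in unpulsed cells with the compared libraries alone. With both EKO replicate 1 libraries left out, Rbpj was 0.24 in unpulsed cells. Of the other pathway genes, 6 with OVA and 7 without OVA were called with an absolute log2 fold change of at least 1, and single libraries left out gave 24 to 29 calls with OVA, of which 9 to 13 were higher and 14 to 16 lower, and 27 to 30 without.

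Without the replicate block, the log2 fold changes between the lines were close to those with it, and the SE of Dll4, Jag1 and Notch2 was larger: with OVA they were 4.29 for Dll4 (SE 0.67), 2.44 for Jag1 (SE 0.89) and 0.39 for Notch2 (SE 0.22), and without OVA 4.41 (SE 0.73), 2.46 (SE 1.13) and 0.47 (SE 0.22). Of the pathway list, 25 genes were called with OVA and 26 without OVA. In unpulsed cells the correlations of same-numbered libraries between the lines were 0.060, -0.012 and 0.26 for replicates 1, 2 and 3. In CtrV cells across pulsing they were 0.077, 0.18 and 0.37. Whether the libraries there share more than a number was not tested. The block changed the call of no member with pulsing.

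Changes with pulsing were small beside their error, and their direction depended on single libraries. In CtrV cells, leaving out each library in turn gave log2 fold changes between -0.70 and 1.01 for Dll4, -0.35 and 1.18 for Jag1, -0.060 and 0.17 for Jag2, and -0.012 and 0.22 for Notch1. In EKO-labelled cells they lay between -0.062 and 0.53 for Dll4, -0.047 and 0.42 for Jag2, -0.025 and 0.16 for Notch1, -0.047 and 0.23 for Notch2, and -0.073 and 0.075 for Rbpj. Rbpj there was -0.000468 with upper-quartile normalization and -0.046 with both EKO replicate 1 libraries left out. The dependence on pulsing lay between -0.79 and 0.93 for Dll4, -0.54 and 1.15 for Jag1, -0.097 and 0.37 for Jag2, -0.16 and 0.083 for Notch1, -0.28 and 0.065 for Notch2, and -0.14 and 0.0079 for Rbpj. It was 0.15 for Dll4 with DESeq2 and -0.020 for Jag1 without the replicate block. None of these was called in any fit, and the cause of the changes was not tested.

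Of 23 named genes outside the members, Neurl1a not included, 18 kept their call in both line comparisons under every fit at an adjusted p under 0.05. The stricter p threshold and the fold limit were not part of this count. Most of these genes were named for a small adjusted p in OVA-pulsed cells, so a kept call partly reflects how they were chosen. In OVA-pulsed cells the call was lost in 9 of 16 fits for Kdm5a, 5 for Mib2, 4 for Myc and 2 for Siglece, and in unpulsed cells in 9 for Mib2 and 1 for Kdm5a, while Adam10 was called in 3. With the longest transcript as length, the OVA-pulsed EKO-labelled means were 145 for Rbpj, 5.40 for Notch1 and 2.33 for Jag2. Notch2 and Notch1 then overlapped in every group but unpulsed EKO-labelled cells. Genes at a few counts per library, Dll4 and Jag1 in CtrV cells and Hes1, Nrarp and Dtx1 in all groups, are limited by depth.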
